A study of Homo sapiens with 8 samples.

Results

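VDAC1, VDAC2 and VDAC3 encode the 3 voltage-dependent anion channels of human cells, and their RNA was followed here in input and m6A-immunoprecipitated (IP) libraries of neuroblastoma cells with and without knockdown of METTL14. VDAC1 was chosen for its low level after knockdown, a value of these same libraries, and VDAC2 and VDAC3 were chosen because they are its paralogs. They are 3 of the 56303 genes in the count table, and all 3 passed the filter on low counts in every comparison. Because VDAC1 was selected on its response to knockdown, its change between the arms is given below as a description with no test. Its ratio of IP to input within an arm took no part in the choice and was tested, as were all values of VDAC2 and VDAC3.

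The libraries came from SK-N-BE(2), an established human neuroblastoma cell line, transduced with lentivirus and selected with puromycin. One arm carried a control hairpin (sh-NC) and the other a hairpin that targets METTL14 (shMETTL14). METTL14 is the RNA-binding partner of METTL3 in the complex that writes N6-methyladenosine (m6A) on messenger RNA. Each arm had 2 cultures and each culture gave 1 input and 1 IP library, which makes 8 libraries. In this assay, MeRIP-seq, poly(A) RNA is fragmented, an aliquot of the fragments is sequenced directly as the input, and the IP is what an anti-m6A antibody recovers from the remainder. The labels do not say whether shMETTL14 cultures 1 and 2 carried the same METTL14 shRNA, so the p-values measure the spread between these cultures, which may be technical. With no rescue of METTL14 analysed here, an effect of METTL14 loss and one of the shRNA sequence itself cannot be told apart.

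VDAC proteins are beta-barrel channels of the outer mitochondrial membrane. They let ATP, ADP, phosphate and small metabolites pass between the mitochondrion and the cytosol, and they carry calcium that is released at contact sites with the endoplasmic reticulum. VDAC1 is usually the most abundant form and is a docking site for hexokinases. VDAC2 binds the cell death effectors BAK and BAX at the outer membrane, and VDAC3 is the least studied form, with cysteines that are open to oxidation. Tumour cells that depend on glycolysis are known for hexokinase bound to VDAC at the mitochondrial surface.

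The total count ran from 32027379 to 47205265 reads per library, and the VDAC genes had 1561 to 9321 reads each in any library, so that the number of cultures limits the precision more than the depth. METTL14 itself was lower in both knockdown cultures, at 13.7 and 14.6 CPM in the input against 49.5 and 48.8 CPM in sh-NC, where CPM is the read count scaled to a library of 1000000 reads. In edgeR's test this was a log2 change of -1.79 ± 0.0663 (SE, adjusted p = 1.28e-15), and METTL14 therefore goes with the labels. Of 10 markers of adrenergic neuroblastoma, 8 were at 10 CPM or more in every input library and none was below 1 CPM in all of them. Of 6 markers of other cell types, 4 were below 1 CPM in every input library, and the summed level of the 6 ran from 60.4 to 98.9 CPM, most of it from COL1A1, a collagen gene. COL1A1 was at 85.0 and 92.4 CPM in sh-NC and at 57.6 and 54.6 CPM in shMETTL14, and its part in the results was not tested, while PTPRC, CD3E, PECAM1 and ALB, which mark blood, T, endothelial and liver cells, were the 4 below 1 CPM.

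VDAC1 lies on chromosome 5 at 133971915 to 134005133 of GRCh38 on the minus strand, with 12 merged exons and 3163 exonic bases. VDAC2 lies on chromosome 10 at 75210154 to 75231448 on the plus strand, with 13 merged exons and 2827 exonic bases. VDAC3 lies on chromosome 8 at 42391624 to 42405897 on the plus strand, with 11 merged exons and 3141 exonic bases. No exon of the 3 genes shares bases with another gene of the table, so none of their reads is shared through overlap, whichever strand was counted. The counts are over whole genes, and the place of m6A within a transcript cannot be read from them.

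Per kilobase of exon, VDAC1 was the most abundant of the 3 in the control inputs and the least abundant in the knockdown inputs, there by a small margin below VDAC3. The input level of VDAC1 was 260.7 and 249.3 CPM in the sh-NC cultures and 72.5 and 76.7 CPM in the shMETTL14 cultures. The groups did not overlap, and the knockdown cultures lay at a mean of 74.6 ± 2.97 CPM against 255 ± 8.09 CPM (SD, n = 2 each). The fitted log2 change was -1.77 ± 0.0409 (SE), a level 3.40-fold lower. Of 22245 genes tested in the input, of which 12.3% were called lower and 11.7% higher at an adjusted p under 0.05, VDAC1 had the 59th lowest log2 change. Among the 6652 genes with a mean of at least 1000 reads per library it had the 2nd lowest, next to METTL14, the target of the shRNA.

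VDAC2 and VDAC3 moved in opposite directions from each other in the input, and by far less. VDAC2 had 181.3 and 177.6 CPM in sh-NC and 163.3 and 164.1 CPM in shMETTL14. The knockdown cultures were thus both below the controls, and VDAC2 fell by 0.13 on the log2 scale (SE 0.0365, edgeR adjusted p = 0.0130). This call was lost without sh-NC culture 1, without shMETTL14 culture 1 and without shMETTL14 culture 2, with adjusted p-values from edgeR of 0.0629, 0.141 and 0.141, and it was also lost with no filter on low counts. VDAC3 had 72.1 and 70.2 CPM in sh-NC and 80.9 and 79.6 CPM in shMETTL14. Both knockdown cultures were above both controls, and VDAC3 rose by 0.18 on the log2 scale (SE 0.0450, edgeR adjusted p = 0.00415), a call that was lost without shMETTL14 culture 1 (adjusted p = 0.0947) and without culture 2 (adjusted p = 0.101). In a bulk measurement such as this, fewer cells that express a gene and less of its RNA per cell cannot be told apart.

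**Figure D1:**
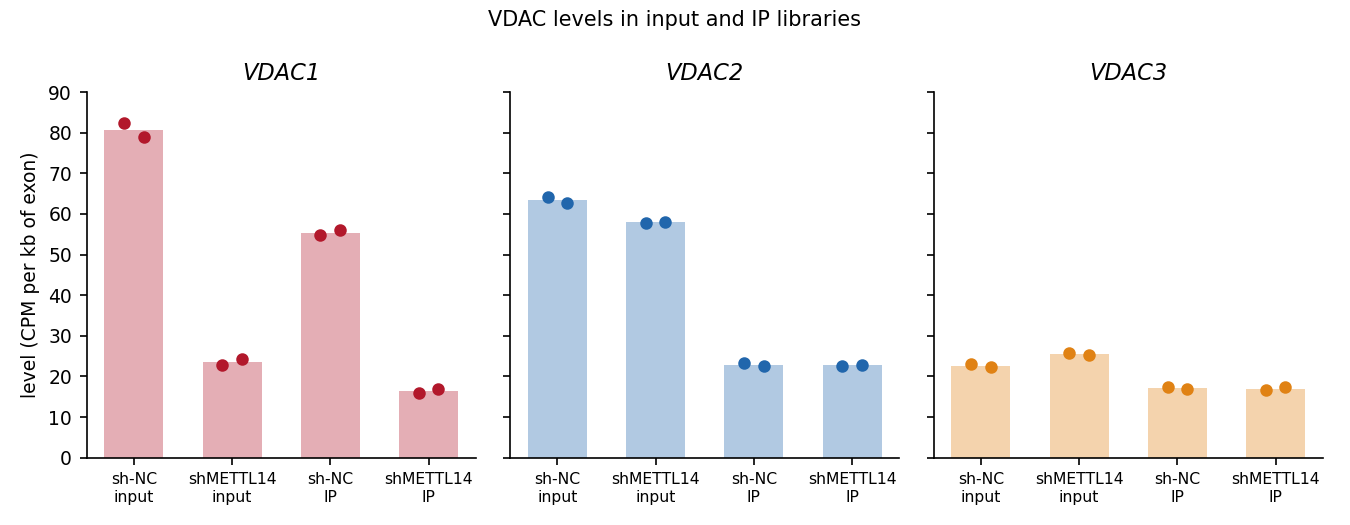
Level of VDAC1, VDAC2 and VDAC3 in CPM per kb of exon (vertical axis) in the 4 groups of libraries (horizontal axis). Points are libraries and bars their mean (n = 2). VDAC1 is at 80.6 in sh-NC input and at 23.6 in shMETTL14 input, whereas VDAC2 (63.5 and 57.9) and VDAC3 (22.6 and 25.5) lie closer together.

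Levels of different genes were compared per kilobase of exon, as the plot of levels by library shows. In sh-NC input the order was VDAC1 at 80.6 ± 2.56, VDAC2 at 63.5 ± 0.927 and VDAC3 at 22.6 ± 0.427 CPM per kb (SD, n = 2 each), and neighbours in this order were further apart than their spread. Among 22953 genes these levels ranked 494th, 664th and 2135th from the highest. In shMETTL14 input the order was VDAC2 at 57.9 ± 0.191, VDAC3 at 25.5 ± 0.299 and VDAC1 at 23.6 ± 0.938 CPM per kb. The ranks were then 746th for VDAC2, 1872nd for VDAC3 and 2049th for VDAC1. VDAC3 and VDAC1 did not overlap between libraries there, and their means lay 1.97 CPM per kb apart. Reads assigned to the VDAC1 pseudogenes described below were not added. They were 21.3% and 18.9% of the reads of VDAC1 in these libraries, or 5.01% and 4.43% without VDAC1P8. The order of VDAC3 and VDAC1 may thus depend on how such reads are assigned.

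The ratio of 2 genes within a library needs no scaling between libraries, and it restates the reordering from the same counts. Per base of exon, VDAC1 had 1.29 and 1.25 reads for each read of VDAC2 in control inputs, and 0.397 and 0.418 after knockdown. Against VDAC3, VDAC1 had 3.59 and 3.53 reads in control inputs, and 0.890 and 0.957 after knockdown. The raw read ratios put the log2 change of VDAC1 at -1.64 relative to VDAC2 and at -1.95 relative to VDAC3. These nearly equal the differences of the fitted changes, which the shared counts fix in advance, so they are no separate check. The ratio of VDAC3 to VDAC2, of which neither gene was chosen by its value, was 0.358 and 0.356 per base in control inputs, and 0.446 and 0.436 after knockdown. Both knockdown cultures were higher, a log2 difference of 0.31, with a two-sided exact permutation p of 0.333, the smallest that 2 cultures against 2 allow.

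The summed level of the 3 genes was 167 ± 3.91 CPM per kb in sh-NC input and 107 ± 0.830 in shMETTL14 input (SD, n = 2 each). VDAC1 made up 48.4% ± 0.399 of that sum in the control inputs and 22.0% ± 0.706 in the knockdown inputs. VDAC2 made up 38.1% ± 0.337 and then 54.1% ± 0.241, and VDAC3 made up 13.6% ± 0.0627 and then 23.9% ± 0.465. The summed level was therefore lower, and the higher share of VDAC2 goes with a slightly lower level of its own. The higher level of VDAC3, of 2.89 CPM per kb between the means, was small beside the 57.1 CPM per kb by which VDAC1 was lower.

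**Figure D2:**
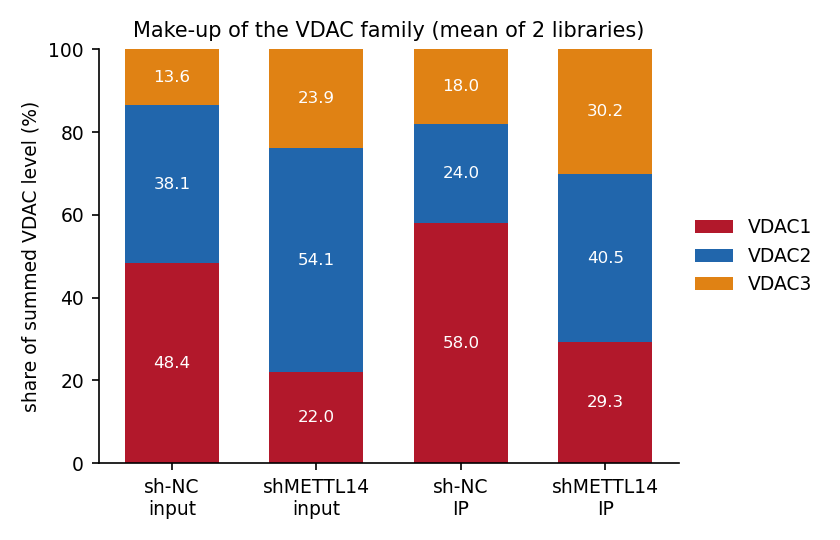
Share of each gene in the summed level of VDAC1, VDAC2 and VDAC3 (vertical axis, percent, from CPM per kb) in the 4 groups of libraries; each bar is the mean of 2 libraries. VDAC1 holds 48.4% of the sum in sh-NC input and 22.0% in shMETTL14 input, and 58.0% and 29.3% in the IP libraries.

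In the IP libraries VDAC1 was lower after knockdown by about the same factor as in the input, and neither paralog passed the test. The IP libraries were scaled to each other, so a change in recovery shared by most genes is removed and cannot be seen in these values. VDAC1 had 173.4 and 177.1 CPM in the sh-NC IP libraries and 50.7 and 53.3 CPM in the shMETTL14 IP libraries. The groups did not overlap, and the fitted log2 change was -1.75 ± 0.0466 (SE), a level 3.37-fold lower. Among the 6652 genes with a mean of at least 1000 reads it had the lowest log2 change, and among all 21196 genes tested in the IP libraries the 34th lowest. Of these, 12.6% were called lower and 10.4% higher.

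VDAC2 had 65.9 and 63.8 CPM in the sh-NC IP libraries and 64.2 and 64.4 CPM in those of shMETTL14, so that the groups overlapped. Its log2 change was -0.02 ± 0.0497 (SE, edgeR adjusted p = 0.867), with a 95% interval of -0.11 to 0.08. VDAC3 had 54.6 and 53.2 CPM in the sh-NC IP libraries and 52.2 and 54.5 CPM in those of shMETTL14, and these overlapped as well. Its log2 change was -0.02 ± 0.0532 (SE, edgeR adjusted p = 0.872), with a 95% interval of -0.12 to 0.09. Neither interval includes the change of the same gene in the input, -0.13 for VDAC2 and 0.18 for VDAC3, but the test of IP over input between arms, which addresses this difference, did not pass for either gene. The ratio of VDAC3 to VDAC2 was 0.745 and 0.750 per base in the sh-NC IP libraries and 0.732 and 0.762 in the shMETTL14 IP libraries, which lie on both sides of the controls (two-sided exact permutation p = 1.00).

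Per kb of exon the order in the sh-NC IP libraries was VDAC1 at 55.4 ± 0.817, VDAC2 at 22.9 ± 0.525 and VDAC3 at 17.2 ± 0.308 CPM per kb (SD, n = 2 each), again with neighbours further apart than their spread. In the shMETTL14 IP libraries it was VDAC2 at 22.7 ± 0.0470, VDAC3 at 17.0 ± 0.515 and VDAC1 at 16.4 ± 0.582 CPM per kb. There VDAC3 and VDAC1 did not differ beyond their spread. The share of VDAC1 in the summed level was 58.0% ± 0.864 in the sh-NC IP libraries and 29.3% ± 0.441 in those of shMETTL14.

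**Figure D3:**
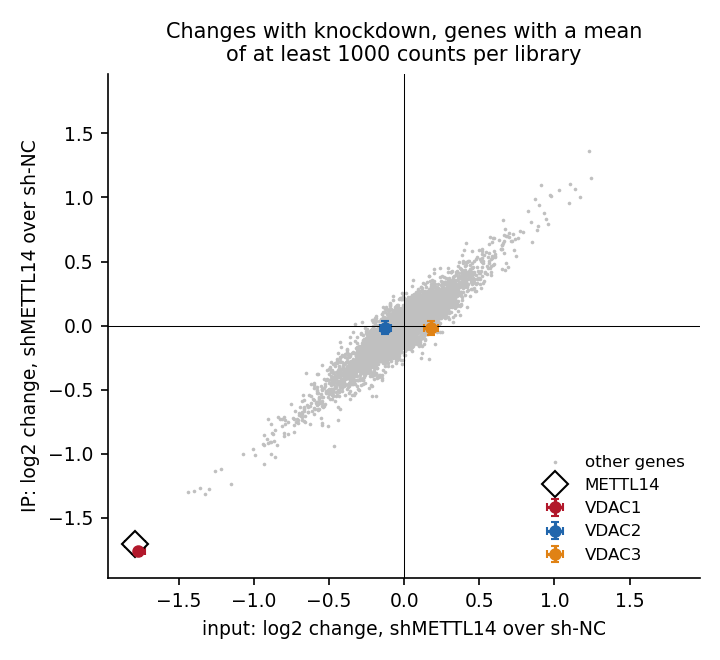
Fitted log2 change of shMETTL14 over sh-NC in the input libraries (horizontal axis) and in the IP libraries (vertical axis) for genes with a mean of at least 1000 reads per library. Grey points are genes; VDAC1, VDAC2, VDAC3 and METTL14 are marked, the VDAC genes with SE bars. VDAC1, at -1.77 and -1.75, lies beside METTL14 and apart from VDAC2 and VDAC3, which lie near 0 on both axes.

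The plot of the changes in both kinds of library shows VDAC1 next to METTL14, and its paralogs within the bulk of the genes. VDAC2 lies left of 0 and VDAC3 right of 0 on the input axis, and both lie at 0 within their error on the IP axis.

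VDAC2 had the lowest ratio of IP to input of the 3 genes in every culture. A ratio of IP to input of 1 is, with the scaling used here, that of a typical gene. A gene with a ratio above 1 was recovered by the antibody more than the typical gene. How closely this ratio follows the m6A of a gene was not tested. The ratio of VDAC1 was 0.665 and 0.710 in the sh-NC cultures. That of VDAC2 was 0.364 and 0.359, and that of VDAC3 was 0.757 and 0.758. All 3 were thus below the typical gene in sh-NC, with VDAC2 furthest below. When the scaling rests on the 25% of genes least recovered by the antibody, VDAC1 and VDAC3 lie above 1 and VDAC2 stays below it. All 3 then still lie below the median of all genes.

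The log2 ratio of IP to input in sh-NC was -0.54 ± 0.0409 for VDAC1 (SE, edgeR adjusted p = 1.30e-16), -1.47 ± 0.0431 for VDAC2 (adjusted p = 1.58e-32) and -0.40 ± 0.0497 for VDAC3 (adjusted p = 9.21e-10). Under that scaling, which moves the median of all genes to 0.92, these values were 0.40, -0.53 and 0.54. Of the 22953 genes tested 29.8% were called lower and 29.1% higher in IP than in input, so a call in this comparison is common. By rank, which such a shift leaves nearly as it is, VDAC2 stood at percentile 5.32 of log2 IP over input, VDAC1 at 23.7 and VDAC3 at 29.5. METTL14, for comparison, stood at 84.4.

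VDAC2 kept the lowest ratio in the knockdown cultures. The ratios of VDAC2 and VDAC3 lay outside the range of their controls, but 2 cultures against 2 allow no exact permutation p below 0.333. The edgeR test of the difference between arms, given below, did not pass for either gene under the scaling used. VDAC1 had 0.699 and 0.695, within the range of its sh-NC cultures. VDAC2 had 0.393 and 0.392, both a little above the controls, and VDAC3 had 0.645 and 0.685, both below the controls. In shMETTL14 the log2 ratio was -0.52 ± 0.0476 for VDAC1 (SE, edgeR adjusted p = 1.02e-13), -1.35 ± 0.0436 for VDAC2 (adjusted p = 8.91e-31) and -0.59 ± 0.0495 for VDAC3 (adjusted p = 6.19e-15), but under the scaling on the least recovered genes, which moves the median of all genes to 0.80, the direction of VDAC1 (0.29) and VDAC3 (0.23) flips again while VDAC2 stays at -0.53. In this arm 29.1% of genes were called lower and 28.9% higher, and VDAC2, VDAC3 and VDAC1 stood at percentiles 5.97, 21.3 and 23.8.

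**Figure D4:**
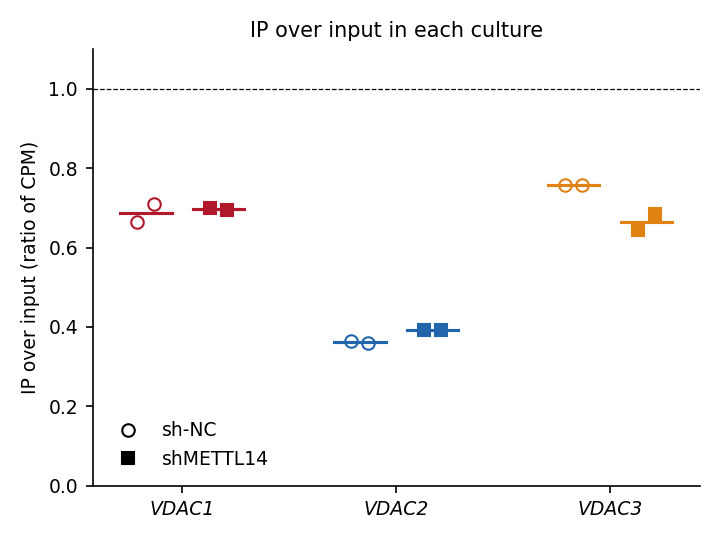
Ratio of IP to input CPM (vertical axis) of VDAC1, VDAC2 and VDAC3 in each culture. Open circles are sh-NC cultures, filled squares shMETTL14 cultures, and lines the mean of 2 cultures; the dashed line at 1 is the typical gene under the scaling used. VDAC2 sits near 0.4 in all 4 cultures and VDAC1 and VDAC3 between 0.645 and 0.758. With the scaling on the least recovered genes VDAC1 and VDAC3 would lie above 1, but still below the median of all genes.

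The difference between 2 genes in log2 IP over input within a culture does not depend on the scaling. Over the 4 cultures the ratio of VDAC1 exceeded that of VDAC2 by 0.88 ± 0.0731 on the log2 scale (SD, n = 4), and was higher in 4 of 4 cultures. VDAC3 exceeded VDAC2 by 0.91 ± 0.181, also in 4 of 4, with a wider gap in the sh-NC cultures (1.06 and 1.08) than in the shMETTL14 cultures (0.72 and 0.80). For both pairs the two-sided exact permutation p over cultures was 0.125, the smallest that 4 cultures allow, and 0.188 after Benjamini-Hochberg adjustment over the 3 pairs compared. VDAC1 and VDAC3 differed by -0.04 ± 0.132, with VDAC1 the lower in both sh-NC cultures and the higher in both shMETTL14 cultures (exact permutation p = 0.75).

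The difference of this ratio between shMETTL14 and sh-NC addresses whether the recovery of a gene by the antibody moved relative to that of the typical gene. The scaling centres IP over input near 0 in both arms, so a change shared by most genes is removed before the test. For VDAC1 it was 0.02 ± 0.0628 on the log2 scale (SE), with a 95% interval of -0.10 to 0.14, given with no test, and it was -0.10 with the scaling on the least recovered genes. For VDAC2 it was 0.12 ± 0.0612 (edgeR adjusted p = 0.794), with an interval of -0.00 to 0.24. For VDAC3 it was -0.19 ± 0.0702 (edgeR adjusted p = 0.666, unadjusted p = 0.00977), with an interval of -0.33 to -0.05. Among the 6652 genes with a mean of at least 1000 reads, the change of VDAC3 was the 119th lowest and that of VDAC2 the 6110th lowest. With the scaling on the least recovered genes the value of VDAC3 was -0.31 and passed the test (edgeR adjusted p = 0.0457), and that of VDAC2 was -0.00. The least recovered genes were picked by their low ratio in the sh-NC arm of these same libraries. That choice can by itself shift the difference between arms downward for other genes, so no conclusion is drawn from this pass. In the whole table edgeR called 1 of 22953 genes lower (0.00436%, SLC7A5, an amino acid transporter gene named after its value was seen) and 0 higher (0%). At an unadjusted p under 0.05 it gave 760 lower and 696 higher, and DESeq2 called 0 in either direction. With the scaling on the least recovered genes edgeR called 107 lower and 1 higher, and the median of all genes was -0.12.

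The table also lists VDAC pseudogenes, copies of a parent gene that can share its reads. There were 13 rows for copies of VDAC1, 4 for VDAC2 and 1 for VDAC3, of which 2, 3 and 0 had no read in any library. VDAC1P8 had the most reads, 475 and 494 in control inputs against 501 and 462 after knockdown, which did not follow VDAC1. Its row spans 5136 exonic bases in 5 merged exons, more bases than the parent has, and 381 of them also belong to FUCA2 and 888 to RP1-20N2.8. The next was VDAC1P6, with 138 and 144 reads in control inputs against 38 and 48 after knockdown.

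Without VDAC1P8, the copies of VDAC1 summed to 453 and 475 reads in control inputs against 154 and 142 after knockdown. This was a nearly fixed share of the parent's reads, 4.86% and 5.28% with the control shRNA, 5.01% and 4.43% with the other. Its range was 2.99% to 3.19% in IP libraries. Reads of near-identical copies cannot be told apart from those of the parent in these counts, so the values of the copies are uncertain. The copies of VDAC2 and VDAC3 had 12 reads or fewer in any library.

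The pattern of VDAC1 over the 8 libraries was unlike that of its paralogs. Among 9406 genes with a mean of at least 500 reads, those most like VDAC1 by Pearson correlation of log2 CPM were NPTX2, which encodes a neuronal pentraxin (r = 0.999), PRKAA1, which encodes a catalytic subunit of AMP-activated kinase (r = 0.998), S100A10 (r = 0.997), RP11-147L13.11 (r = 0.997) and ENTPD3, which encodes an enzyme that hydrolyses extracellular nucleotides (r = 0.997). Their input log2 changes, of -0.42 for S100A10 to -0.89 for ENTPD3, were smaller in size than that of VDAC1, since the correlation follows the shape and not the size of a pattern. With VDAC2 the correlation of VDAC1 was 0.34 and with VDAC3 it was 0.13. The pattern of VDAC1 holds the low level after knockdown for which it was chosen, so these correlations largely restate that choice.

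VDAC2 was most like BEST1, ACTG1 and ARF1 (r = 0.9996 for BEST1, 0.9995 for ACTG1 and 0.9995 for ARF1), and VDAC3 was most like FBXO21 (r = 0.995), PPIAP22 (r = 0.994) and RP11-159D12.5 (r = 0.994). VDAC2 and VDAC3 correlated with each other by 0.95. These correlations are descriptions over 8 libraries that share 4 cultures, and for VDAC2 and VDAC3 the widest step among the groups was from input to IP.

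Genes that work with the channels were followed in 4 lists set by their textbook role. Of 44 genes, all tested, 12 fell (27.3%) and 3 rose (6.82%) in the input, beside 12.3% and 11.7% of all genes. The shares over all genes, here and below, were not matched to the lists by number of reads, which affects how readily a gene is called. In the IP libraries 12 fell and 3 rose as well, beside 12.6% and 10.4% of all genes. The genes that fell in both numbered 10, or 83.3% of either 12, and the 3 that rose were the same. Input and IP come from the same cultures, and of all genes called lower 68.0% of those in the input and 69.7% of those in the IP libraries were called in both, and of those called higher 60.4% and 71.3%. Without shMETTL14 culture 2 the input counts were 5 lower and 0 higher, with no filter on low counts they were 5 and 3, and without shMETTL14 culture 1 the IP counts were 6 and 2.

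Beta-barrel proteins such as VDAC enter mitochondria through the TOM complex and are inserted into the outer membrane by the SAM complex. Of 11 genes of this list, 2 fell and none rose in the input, with a median log2 change of -0.07 against 0.00 over all genes. MTX3, which encodes a metaxin of the SAM complex, had 1247 and 1129 reads in control inputs against 832 and 904 in the deeper knockdown inputs, and fell by 0.68 on the log2 scale (SE 0.0728, edgeR adjusted p = 1.49e-07). TOMM5, a small subunit of the TOM channel, fell by 0.15 (SE 0.0462, adjusted p = 0.0217), a call lost with DESeq2, with no filter, and without sh-NC culture 2 or either shMETTL14 culture. MTX3 fell by 0.51 in the IP libraries (SE 0.0916, adjusted p = 3.44e-05), and TOMM5 was at -0.09 (adjusted p = 0.175).

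For metabolite exchange, the list held 11 genes for hexokinases, mitochondrial creatine kinases, adenylate kinase 2, the carriers of phosphate and of ADP and ATP, and TSPO. In the input 3 rose and 3 fell, with a median of 0.02. HK2, whose product is a hexokinase that docks on VDAC, rose by 0.21 (SE 0.0394, edgeR adjusted p = 0.000296). CKMT1A and CKMT1B, a near-identical pair whose reads may be split between them, rose by 0.35 (SE 0.0719, adjusted p = 0.000617) and 0.25 (SE 0.0526, adjusted p = 0.000731). The carriers SLC25A5 and SLC25A6, of ADP and ATP, and SLC25A3, of phosphate, fell by 0.21 (SE 0.0479, adjusted p = 0.00162), 0.15 (SE 0.0339, adjusted p = 0.00155) and 0.13 (SE 0.0410, adjusted p = 0.0177). None of the 6 input calls held without shMETTL14 culture 2. The same 6 genes were called the same way in the IP libraries, where HK2 rose by 0.17 (SE 0.0432, adjusted p = 0.00298). Without shMETTL14 culture 1 the IP calls of HK2 (adjusted p = 0.115), SLC25A3, SLC25A5 and SLC25A6 were lost, and that of SLC25A6 also without culture 2.

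Calcium reaches VDAC from the inositol trisphosphate receptors of the endoplasmic reticulum, tethered through HSPA9, and enters the matrix by the calcium uniporter. Of 12 genes of this path 5 fell and none rose, with a median of -0.10. ITPR3 fell by 0.49 (SE 0.0659, edgeR adjusted p = 3.65e-06) and ITPR2 by 0.39 (SE 0.0534, adjusted p = 5.31e-06), both receptors of this kind, and both calls held in each of 11 alternative fits. MCUR1, a regulator of the uniporter, fell by 0.29 (SE 0.0573, adjusted p = 0.000487), a call lost with no filter and without shMETTL14 culture 2. Among IP libraries ITPR3 fell by 0.55 (SE 0.0759, adjusted p = 2.51e-07) and ITPR2 by 0.39 (SE 0.0511, adjusted p = 1.25e-07), and MCUR1 was at -0.07 (adjusted p = 0.451). The pore subunit MCU was at 0.03 in the input and did not pass the test.

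Of 10 genes for permeabilization of the outer membrane and for mitophagy, 2 fell and none rose in the input, with a median of -0.08. BCL2, which encodes an inhibitor of cell death that sits in this membrane, had 1580 and 1604 reads in control inputs against 1069 and 1208 in the knockdown inputs, and fell by 0.71 (SE 0.0650, edgeR adjusted p = 1.25e-08). MCL1, another inhibitor of the same family, fell by 0.27 (SE 0.0359, adjusted p = 3.28e-06). Both calls held in each of 11 alternative fits. After IP, BCL2 fell by 0.76 (SE 0.0497, adjusted p = 1.12e-15) and MCL1 by 0.25 (SE 0.0398, adjusted p = 4.50e-06). The effectors BAX and BAK1, partners of VDAC2, were at -0.08 and 0.08 in the input, and neither passed the test.

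**Figure D5:**
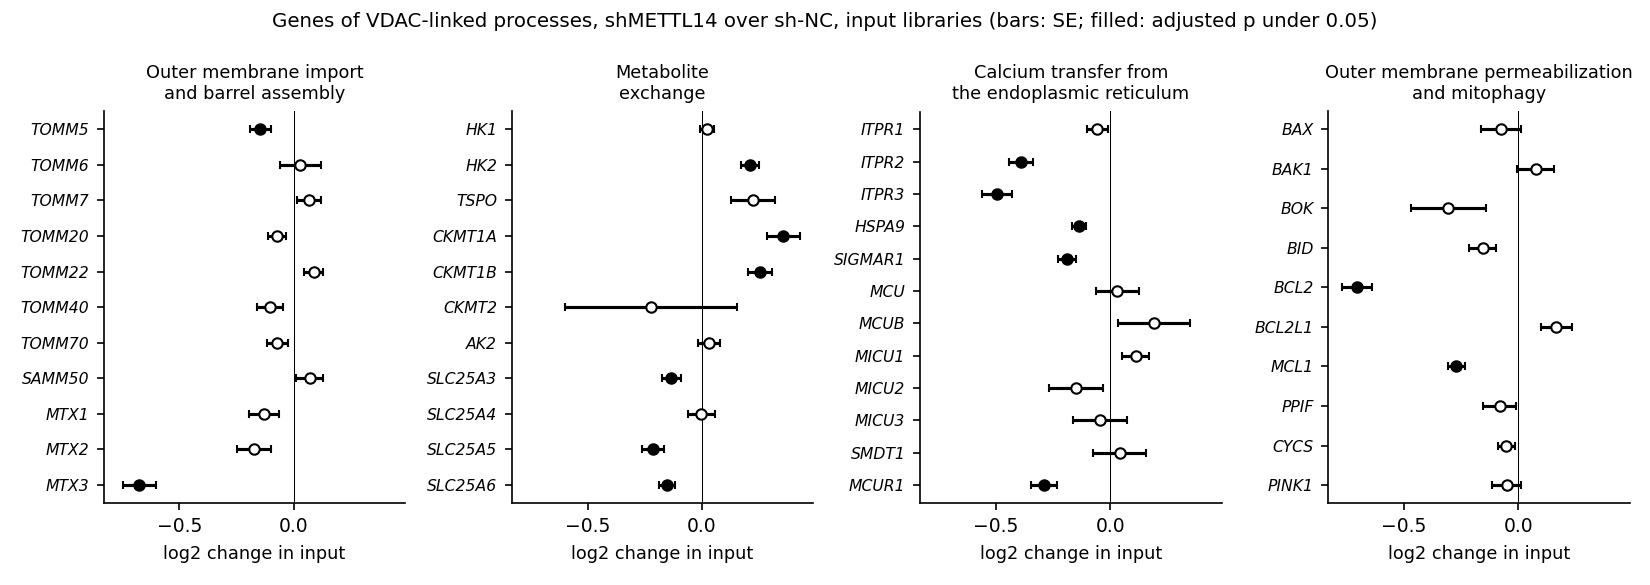
Fitted log2 change of shMETTL14 over sh-NC in the input libraries (horizontal axis) for 44 genes in 4 lists of VDAC-linked processes (one panel each). Points are fitted values, bars the SE, and filled points passed an adjusted p of 0.05. The lowest points are BCL2 at -0.71 and MTX3 at -0.68. VDAC1, which was chosen for its low level after knockdown, was at -1.77.

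The plot of these lists shows no gene with a log2 change as low as that of VDAC1. VDAC1 was chosen for its low level after knockdown, so this largely restates that choice and is no result about the lists. Under the scaling used, 26 of the 44 genes (59.1%) were lower in IP than in input in both arms, beside 29.8% and 29.1% of all genes. In sh-NC 8 (18.2%) were higher and in shMETTL14 9 (20.5%), beside 29.1% and 28.9% of all genes. The scaling on the least recovered genes raises IP over input of all genes by construction. The direction then flips for most of the 44, to 4 lower and 33 higher in sh-NC and 5 and 30 in shMETTL14. Of all genes, again not matched by number of reads, 4.44% were then lower and 71.9% higher in sh-NC, and 5.36% and 68.0% in shMETTL14. None of the 44 genes passed the edgeR test for a difference of that ratio between arms, where 1 had an unadjusted p under 0.05, nor the DESeq2 test.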

How the data were processed

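The authors deposited 1 table of raw read counts per gene, with no normalization, for 8 libraries, and each column was assigned to its group by the sample title it matches. The submitters' processing notes name Trimmomatic 0.36 and GRCh38. Which aligner, counter, annotation and strand setting were used, and whether reads were collapsed by molecular identifier, is not given in the sources used here. Without such collapsing a read need not be 1 molecule. The table also holds the exons and the exonic length of each gene, which was used for levels per kilobase.

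Fits were made with edgeR 4.0.16 in R 4.3.3 (filterByExpr, TMM factors, glmQLFit and glmQLFTest), with Benjamini-Hochberg adjustment over all genes tested and a threshold of 0.05. The input and the IP comparison each used their 4 libraries. IP over input and its change between the arms came from 1 model of 4 group means over all 8 libraries, and the TMM factors of that model gave the CPM. SE is the absolute log2 change divided by the square root of F, and 95% intervals are 1.96 SE to either side. Log2 CPM for correlations had a prior count of 2. The fits were tested on simulated counts. Correlations, ranks and levels are descriptions. Pairs of paralogs were compared by exact permutation in scipy 1.17.1.

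The 2 libraries of each group differed beyond sampling noise, with a chi-square per gene between 2.42 and 3.96, and all were kept as separate replicates. By the protocol, 1 RNA preparation per culture gave both its IP and its input, which pairs them. Over 21528 genes, which are not independent, the paired deviations had a correlation of -0.0128 in sh-NC and of -0.00502 in shMETTL14.

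The members, the gene lists and the rule for named genes were chosen with earlier results of these data known. Named genes are METTL14, the VDAC genes, the 2 pseudogenes with the most reads, the 5 genes most like VDAC1 and the 3 most like VDAC2 or VDAC3, and up to 3 rises and 3 falls of each role list past the threshold in the input. The cell type markers, the genes that overlap VDAC1P8, HSPA9, MCU, TSPO, BAX, BAK1 and SLC7A5 were named outside this rule. Of the list genes, MCUB stands in the table under the older symbol CCDC109B, and 1 gene of the lists is not reported here and enters none of their counts. As alternatives, DESeq2 1.42.0, other filters on low counts, RLE factors, no factors and all 8 libraries in 1 model were run, and each culture was left out. A block was also added, by culture number in the input and IP fits and by culture in the others. TMM factors were further computed on the least recovered genes, the 25% lowest in IP over input in sh-NC. Figures were drawn with matplotlib 3.10.9.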

Additional observations from a re-analysis of the deposited data

How the results depend on the processing

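Of 143 alternative values of tested results for the VDAC genes and METTL14, 126 kept their direction and side of the threshold, and of 39 values with no test 36 moved by less than the spread between replicates. In the input, VDAC2 was at -0.111 with no filter on low counts (edgeR adjusted p = 0.0844) and at -0.142 to -0.112 with a culture left out, where 3 of 4 fits lost the call. VDAC3 was at 0.159 to 0.198 with a culture left out, where 2 of 4 fits lost it. Leaving out a culture leaves 1 in that arm, whose spread is then taken from the other. In the IP libraries, where neither paralog passed a test, library size only turned VDAC2 to 0.00682 and VDAC3 to 0.00622, and leaving out a culture gave -0.0357 to 0.00631 for VDAC2 and -0.0504 to 0.0129 for VDAC3.

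Scaling on the least recovered genes raises IP over input of all genes by construction, to a median of 0.92 in sh-NC and 0.80 in shMETTL14. VDAC1 then changed sign to 0.396 and 0.294 and VDAC3 to 0.537 and 0.226, both still below these medians. The change between the arms was -0.102 for VDAC1, -0.00446 for VDAC2 and -0.311 for VDAC3. Because the scaling genes were picked by their low ratio in sh-NC, this scaling can also shift the change between the arms downward by itself. The counts lower and higher became 1018 and 16505 in sh-NC, against 6833 and 6689, and 1231 and 15604 in shMETTL14, against 6673 and 6633. Library size only moved that median to -0.14 and -0.13, with 8250 lower and 5358 higher in sh-NC and 8080 and 5322 in shMETTL14. Without length correction the level of VDAC1 over VDAC2 in sh-NC input was 1.42 against 1.27, and of VDAC2 over VDAC3 2.52 against 2.80.

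Counts over all genes moved too. In the input, 2732 lower and 2607 higher became 1072 and 1082 with no filter, 1523 and 1355 without shMETTL14 culture 1 and 925 and 656 without culture 2. In the IP libraries, 2667 and 2207 became 1726 and 1341 with DESeq2, 1634 and 1132 without shMETTL14 culture 1 and 1821 and 1383 without culture 2. For the change of IP over input, 1 and 0 became 107 and 1 with the scaling on the least recovered genes, 12 and 1 with no filter, 116 and 6 without sh-NC culture 1, 7 and 9 without sh-NC culture 2, and 0 to 116 and 0 to 9 over all alternatives.

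In the input and IP fits the block was the number of the culture. VDAC1 was then at -1.77, VDAC2 at -0.13 (edgeR adjusted p = 0.0128) and VDAC3 at 0.18 (adjusted p = 0.00230) in the input. For IP over input and its change between the arms the block was the culture itself, which pairs each IP with its input. No call of the 3 genes changed in any of these fits. Across the arms same-numbered cultures share only a number: their deviations correlated by -0.0145 in the inputs and 0.00362 in the IP libraries.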
